A study of Mus musculus with 12 samples.

Results

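The genes described here are 5 ion channel genes whose mRNA was higher in the hippocampus of mice that lack *Dek*, a gene for a chromatin-binding protein. They are *Tmc4*, *Clic3*, *P2rx6*, *Clcn1* and *Scnn1g*, 5 of the 26409 genes with a level in the table, and all 5 were among the 18197 genes that averaged 0.1 TPM or more and were tested. TPM (transcript share of a library, scaled to a fixed total) is a level corrected for transcript length, so that levels of different genes can be set side by side. The 5 genes were selected on their higher level in knockout than in wild-type (WT) libraries of these same mice, so the genotype difference is given below as a description, without a test.

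Hippocampi of 12 mice were sequenced, 3 from each sex of WT and of *Dek* cKO animals. For the knockout, *Dek* fl/fl animals, in which loxP sites flank exons 3 and 4, had been crossed to a CMV-Cre line of C57Bl/6 background. Cre was bred out after the deletion had entered the germline and the line was kept by heterozygous matings, so every cell of a cKO mouse carries the deletion from conception and the loss of *Dek* is not restricted to neurons or to the adult. Mice were 6 to 12 months old. The 3 female WT libraries have names that begin with C57, while the 3 male WT and all 6 cKO libraries have names that begin with CMV; what the prefix stands for is not given in the sources used here.

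*Dek* itself lay between 44.2 and 51.9 TPM in the 6 WT libraries and between 5.55 and 9.25 TPM in the 6 cKO libraries, so every library matched its genotype label. The sex labels did not all match. The Y-linked genes *Eif2s3y* and *Ddx3y* were at 72.7 and 20.4 TPM, levels of male libraries, in the one labelled female cKO replicate 3. In that labelled male cKO replicate 1, *Eif2s3y* was at 0.111 TPM and *Ddx3y* was listed at 0. Sexes are given below as labelled, and the log2 differences by sex and their tests are also given without these 2 libraries. The 10 markers of hippocampal neurons, among them *Camk2a* and *Prox1*, summed to between 3566 and 4133 TPM in WT and between 3455 and 4189 TPM in cKO libraries. Most of that sum came from *Camk2a*, *Nrgn* and *Slc17a7* (means of 1488, 1203 and 786.5 TPM), while *Prox1* averaged 2.17 TPM. The table keeps no read counts, so the counting error of a level is unknown. In bulk tissue, fewer cells of a type and less RNA per cell cannot be told apart.

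The 5 genes belong to 5 different families. *Tmc4* encodes a member of the transmembrane channel-like family, whose relatives *Tmc1* and *Tmc2* serve the mechanotransduction channel of inner-ear hair cells; the TMC4 protein is described as a voltage-gated chloride channel. *Clic3* encodes a chloride intracellular channel protein, of a family whose members exist both as soluble proteins and in membranes. *Clcn1* encodes ClC-1, the chloride channel that stabilizes the resting potential of skeletal muscle and whose loss causes myotonia. *P2rx6* encodes a P2X subunit, part of the cation channels that extracellular ATP opens, and works mainly in combination with other P2X subunits. *Scnn1g* encodes the gamma subunit of the epithelial sodium channel ENaC, which with the alpha (*Scnn1a*) and beta (*Scnn1b*) subunits takes up sodium across epithelia such as that of the kidney. Chloride channels bear on neurons because the chloride gradient sets the effect of GABA, and sodium and P2X channels carry inward current.

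The genes lie on 4 chromosomes of GRCm38 (mm10). *Tmc4* (ENSMUSG00000019734) is at chr7:3665790-3677553 on the minus strand, and *Scnn1g* (ENSMUSG00000000216) at chr7:121734479-121768475 on the plus strand of the same chromosome. *Clic3* (ENSMUSG00000015093) is at chr2:25456838-25458776, *Clcn1* (ENSMUSG00000029862) at chr6:42286685-42315756 and *P2rx6* (ENSMUSG00000022758) at chr16:17561885-17577800, all on the plus strand. Their promoter windows, from 250 bases before to 50 bases after the RefSeq start, were taken for 4 of the 5 from the GRCm38.p6 table of RefSeq promoters. The windows of *Tmc4* and *P2rx6* are printed 5′ to 3′ on the strand of the gene, since both genes were higher in all 6 cKO libraries than in any WT library. Capitals mark, on either strand, the letters TATAAA of the TATA box, the letters GGGCGG of the GC box and the letters CCAAT of the box of that name. The windows are chr7:3677504-3677803 (minus strand) for *Tmc4* and chr16:17561635-17561934 (plus strand) for *P2rx6*.
Tmc4: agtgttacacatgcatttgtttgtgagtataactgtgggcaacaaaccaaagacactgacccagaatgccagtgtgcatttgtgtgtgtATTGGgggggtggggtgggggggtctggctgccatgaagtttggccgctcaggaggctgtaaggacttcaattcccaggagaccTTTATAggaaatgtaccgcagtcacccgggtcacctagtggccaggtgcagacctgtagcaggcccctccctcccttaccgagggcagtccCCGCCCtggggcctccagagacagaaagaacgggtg
P2rx6: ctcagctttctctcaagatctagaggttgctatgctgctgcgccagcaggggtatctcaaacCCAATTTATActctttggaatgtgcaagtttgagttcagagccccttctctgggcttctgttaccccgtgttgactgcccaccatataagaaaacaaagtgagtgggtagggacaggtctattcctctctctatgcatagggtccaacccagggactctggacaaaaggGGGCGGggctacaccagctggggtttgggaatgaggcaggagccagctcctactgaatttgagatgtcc
GGGCGG was found in the windows of *Tmc4*, *P2rx6* and *Scnn1g* (3 of 4), and in 35.7% of all 32851 windows of the same length. TATAAA was found in those of *Tmc4*, *P2rx6* and *Clcn1* (3 of 4; 13.6% of all windows), and CCAAT in those of *Tmc4* and *P2rx6* (2 of 4; 37.4% of all windows), where in the *P2rx6* window it shares 1 base with a TATAAA match on the other strand. CACGTG, searched as well, was found in 0 of the 4 windows and in 7.15% of all. The windows held 6 (*Tmc4*), 3 (*P2rx6*), 3 (*Clcn1*) and 18 (*Scnn1g*) CpG dinucleotides, against a median of 7 over all windows. These letters are described only; nothing was measured at the promoters.

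The chloride channel gene *Tmc4* had the highest level of the 5. Its values were 9.47, 8.46 and 8.45 TPM in female WT libraries, 8.34, 10.7 and 7.03 TPM in male WT libraries, 18.9, 14.5 and 14.9 TPM in female cKO libraries and 13.6, 14.5 and 12.9 TPM in male cKO libraries. All 6 cKO values lay above all 6 WT values, and the highest was that of female cKO replicate 1. The mean was 8.75 ± 1.25 TPM (SD, n = 6) in WT and 14.9 ± 2.12 TPM (SD, n = 6) in cKO, a ratio of 1.70. The difference of log2(TPM + 0.1), the scale used for all fits, was 0.76 with a standard error of 0.11.

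*Clic3* had a lower level than *Tmc4*, and its genotypes did not overlap either. It was at 5.29, 5.15 and 5.80 TPM in female WT, 3.91, 4.13 and 5.40 TPM in male WT, 8.59, 8.57 and 7.05 TPM in female cKO and 9.43, 8.74 and 7.69 TPM in male cKO libraries. The lowest cKO value, in female cKO replicate 3, was above the highest WT value, in female WT replicate 3. Means were 4.95 ± 0.754 TPM (SD, n = 6) in WT and 8.34 ± 0.842 TPM (SD, n = 6) in cKO, a ratio of 1.69, and the log2 difference was 0.75 (standard error 0.11).

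*Clcn1*, the muscle chloride channel gene, varied more between mice. Its levels were 3.36, 5.61 and 4.12 TPM in female WT, 6.74, 5.15 and 4.54 TPM in male WT, 11.0, 7.53 and 6.07 TPM in female cKO and 10.9, 6.42 and 9.01 TPM in male cKO libraries. The genotypes overlapped: female cKO replicate 3 and male cKO replicate 2 lay below male WT replicate 1, the highest WT library, and the other 4 cKO libraries lay above it. The means were 4.92 ± 1.19 TPM (SD, n = 6) in WT and 8.49 ± 2.17 TPM (SD, n = 6) in cKO, a ratio of 1.73. The log2 difference was 0.77 with a standard error of 0.19, as large as that of *Tmc4* with a wider error.

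The P2X subunit gene *P2rx6* was at 5.10, 4.52 and 4.55 TPM in female WT, 3.62, 5.17 and 5.05 TPM in male WT, 8.56, 6.65 and 7.51 TPM in female cKO and 7.36, 7.33 and 6.19 TPM in male cKO libraries. Here too no cKO value fell into the range of WT. Means of 4.67 ± 0.588 TPM (SD, n = 6) in WT and 7.26 ± 0.811 TPM (SD, n = 6) in cKO gave a ratio of 1.56, the smallest of the 5, and a log2 difference of 0.63 (standard error 0.11).

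*Scnn1g* was close to the lowest level that was tested. It was at 0.117, 0.0555 and 0.0812 TPM in female WT, 0.154, 0.309 and 0.189 TPM in male WT, 0.414, 0.302 and 0.281 TPM in female cKO and 0.463, 0.126 and 0.202 TPM in male cKO libraries. Only 2 cKO libraries, female cKO replicate 1 and male cKO replicate 1, lay above the highest WT library, and male cKO replicate 2 was below the lowest of the male WT libraries. The ratio of means was 1.97 (0.151 ± 0.0913 TPM in WT and 0.298 ± 0.127 TPM in cKO, SD, n = 6 each), the largest of the 5, while the log2 difference was 0.67 with a standard error of 0.33. With 0.5 or 1 TPM added in place of 0.1, that difference was 0.29 or 0.17.

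**Figure D1:**
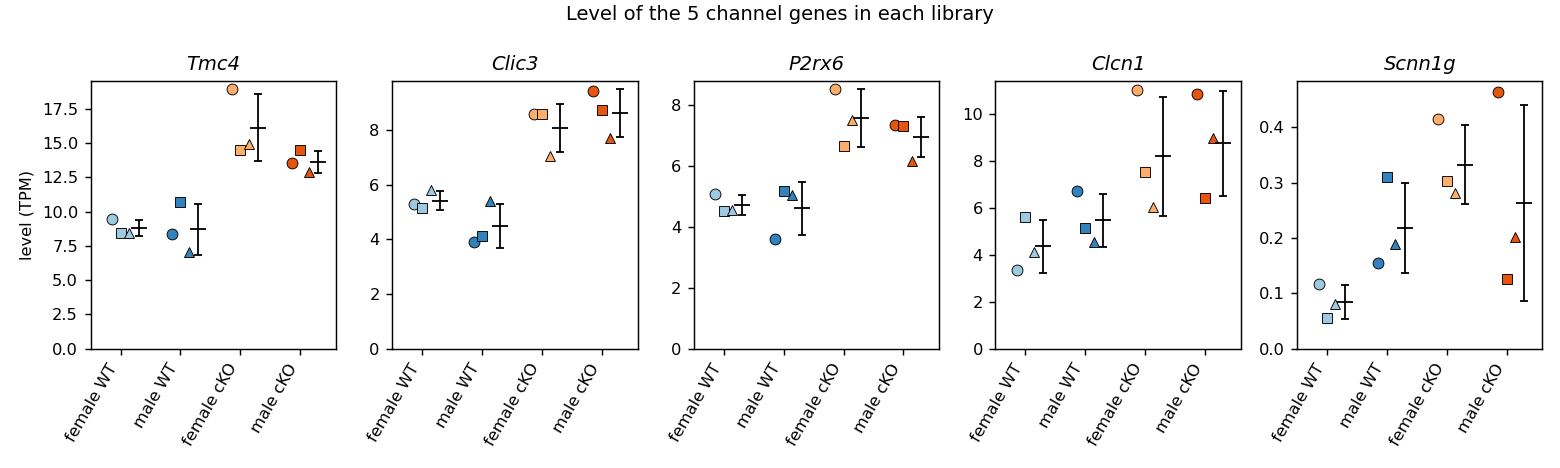
Level in TPM (y axis, from 0, on a scale of its own for each gene) of the 5 genes in the 12 libraries by group. Circles, squares and triangles are replicates 1, 2 and 3 as labelled, and bars give the mean and SD of the 3 libraries of a group. The cKO libraries lie above all WT libraries for *Tmc4*, *Clic3* and *P2rx6*, and overlap them for *Clcn1* and *Scnn1g*.

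The order of the mean levels in WT was *Tmc4*, *Clic3*, *Clcn1*, *P2rx6* and *Scnn1g*. *Tmc4* lay above the others in WT without overlap, and *Scnn1g* below them, while the means of *Clic3*, *Clcn1* and *P2rx6* differed by less than their SDs. In cKO the order was *Tmc4*, *Clcn1*, *Clic3*, *P2rx6* and *Scnn1g*, and *Clcn1* and *Clic3* again differed by less than their SDs. Over all 12 libraries *Tmc4* was more abundant than 53.8% of the genes tested, *Clcn1* than 44.2%, *Clic3* than 44.1% and *P2rx6* than 42.7%, so these 4 were near the middle of the expressed genes.

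Counted by the call rules, 3 of the 5 genes (*Tmc4*, *Clic3* and *P2rx6*) had an adjusted p under 0.05 in limma together with a fold over 1.2, a rule that 0.137% of the genes tested passed upward and 0.011% downward. *Clcn1* joined them at an unadjusted p under 0.05 with a fold of at least 1.5, which 2.09% of genes met upward and 0.594% downward, and *Scnn1g* met neither rule. For 3 of the 5, all 6 cKO values lay above all 6 WT values, as for 0.572% of genes. These counts come from the contrast on which the genes were chosen and carry no evidence of their own. The median log2 difference of the 5 was 0.75, against 0.02 for all genes tested. The number that passed the adjusted threshold depended on the libraries. It was 2, *P2rx6* being lost, with no filter, with quantile normalization or with sex as a covariate, and *P2rx6* kept its call in 1 of the 12 fits that leave out a library, the one without male cKO replicate 3. The number was 1 (*Tmc4*) without female WT replicate 1, female cKO replicate 1, female cKO replicate 2 or male cKO replicate 1, and 0 without both libraries of conflicting sex, while the median difference of the 5 stayed between 0.67 and 0.79 as each library was left out.

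Whether the genotype difference depended on sex was tested as an interaction of genotype and sex in limma, which the choice of genes did not use. The female difference sets CMV-named cKO against C57-named WT libraries, and the male difference compares CMV-named libraries only. Sex and name prefix therefore cannot be told apart in this interaction or in any gap between the sexes given here. In female mice the log2 difference was 0.86 for *Tmc4*, 0.56 for *Clic3*, 0.66 for *P2rx6*, 0.88 for *Clcn1* and 1.23 for *Scnn1g*. In male mice it was 0.66 for *Tmc4*, 0.94 for *Clic3*, 0.60 for *P2rx6*, 0.66 for *Clcn1* and 0.12 for *Scnn1g*. The widest gaps were those of *Scnn1g*, where the female difference exceeded the male by 1.11 with a standard error of 0.61 (limma, unadjusted p = 0.0948, adjusted p = 0.966), and of *Clic3*, where it was smaller (-0.38, standard error 0.21, limma unadjusted p = 0.0972, adjusted p = 0.966). None of the 5 passed, with adjusted p-values from limma between 0.966 and 0.991; 0% of all genes passed, and 770 genes, none of the 5, had an unadjusted p under 0.05. With that standard error, a gap between the sexes of the size seen for *Scnn1g* could not be detected. The 2 libraries of conflicting sex add to the spread that these fits use. Without both, the female log2 differences were 0.91 (*Tmc4*), 0.66 (*Clic3*), 0.67 (*P2rx6*), 1.08 (*Clcn1*) and 1.31 (*Scnn1g*). The male ones were then 0.67 (*Tmc4*), 0.87 (*Clic3*), 0.55 (*P2rx6*), 0.49 (*Clcn1*) and -0.25 (*Scnn1g*), so that *Scnn1g* was no longer higher in male cKO than in male WT. The gap between the sexes was then 1.57 for *Scnn1g* (limma, unadjusted p = 0.0227, adjusted p = 0.492), -0.22 for *Clic3* (adjusted p = 0.796) and between 0.11 and 0.59 for the other 3 (adjusted p between 0.681 and 0.922).

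**Figure D2:**
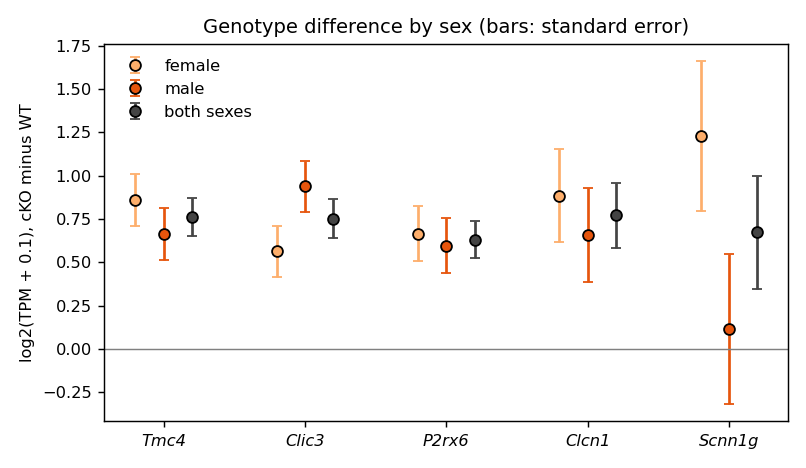
Difference of log2(TPM + 0.1) between cKO and WT (y axis) for each gene in female mice, male mice and both together, with bars of 1 standard error. *Tmc4*, *P2rx6* and *Clcn1* have overlapping bars for both sexes, while *Clic3* is higher in males (0.94 against 0.56) and *Scnn1g* in females (1.23 against 0.12), differences that did not pass the interaction test.

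By the raw values, all 5 genes had their 3 female cKO libraries above their 3 female WT libraries, as did 7.45% of all genes tested, and 3 of 5 (*Tmc4*, *Clic3* and *P2rx6*) had their 3 male cKO above their 3 male WT libraries, as did 5.91%. All 5 genes stood above the C57-named WT libraries in all 6 cKO libraries, as did 1.98% of genes, and 3 of 5 stood above the CMV-named WT libraries, as did 1.92%. Against the CMV-named WT libraries alone the log2 differences were 0.78 (*Tmc4*), 0.89 (*Clic3*), 0.65 (*P2rx6*), 0.60 (*Clcn1*) and 0.29 (*Scnn1g*). Against the C57-named WT libraries alone they were 0.75 (*Tmc4*), 0.61 (*Clic3*), 0.60 (*P2rx6*), 0.94 (*Clcn1*) and 1.06 (*Scnn1g*). For *Tmc4*, *Clic3* and *P2rx6* the separation from WT libraries of either prefix follows from that from all 6 WT libraries. *Scnn1g* differed by 1.06 from the C57-named and by 0.29 from the CMV-named ones. These differences use the values on which the genes were chosen. The C57-named WT libraries are all labelled female and the CMV-named WT ones all male, so prefix and sex cannot be told apart here.

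Among WT mice, male and female libraries were also compared directly, a contrast in which sex and name prefix cannot be told apart. *Scnn1g* was 0.77 higher on the log2 scale in male WT (standard error 0.43) and *Clic3* was -0.28 relative to female WT (standard error 0.15). *Clcn1* differed by 0.33, *Tmc4* by -0.03 and *P2rx6* by -0.05. None passed in limma (unadjusted p between 0.082 and 0.827, every adjusted p = 1), 0% of all genes passed, and 660 genes had an unadjusted p under 0.05. That count of 0 does not show that the WT sexes were alike: the spread of the fit holds the 2 cKO libraries of conflicting sex, and even *Eif2s3y* (log2 difference 7.41) and *Ddx3y* (6.98) did not pass in it (limma, adjusted p = 1 for both). A fit without those 2 libraries, chosen after seeing the data, called 4 genes between the WT sexes, among them *Eif2s3y* (limma, adjusted p = 0.00137) and *Ddx3y* (adjusted p = 0.00565). Of the 5 channel genes it again called none: *Scnn1g* was 0.77 higher in male WT with a standard error of 0.36 (limma, unadjusted p = 0.0622, adjusted p = 0.974), *Clic3* was at -0.28 (unadjusted p = 0.0751, adjusted p = 0.974), and the other 3 had adjusted p-values between 0.974 and 1. Between male and female cKO mice, all with CMV-named libraries, the log2 differences were -0.23 (*Tmc4*), 0.10 (*Clic3*), -0.12 (*P2rx6*), 0.11 (*Clcn1*) and -0.35 (*Scnn1g*). Again none passed in limma (unadjusted p between 0.158 and 0.703, adjusted p between 0.754 and 0.945), 0% of genes were called, and 1278 genes had an unadjusted p under 0.05. Without the same 2 libraries 55 genes were called between cKO sexes and none of the 5, with log2 differences of -0.27 (*Tmc4*), -0.06 (*Clic3*), -0.16 (*P2rx6*), -0.26 (*Clcn1*) and -0.80 (*Scnn1g*) and adjusted p-values from limma between 0.433 and 0.911.

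The 5 genes were not high in the same libraries to the same degree. Female cKO replicate 1 ranked first or second of the 12 libraries for 4 of the 5 genes, with a mean log2 level 1.02 above the WT means, and male cKO replicate 1 did so for 3 of the 5, with 0.93. The other 4 cKO libraries averaged between 0.51 and 0.69 above WT. Within a genotype, the levels of 2 genes were compared over the 12 libraries after the genotype means had been removed, for all 10 pairs. The closest pair was *Tmc4* and *P2rx6* (Pearson r = 0.519, permutation p = 0.105, adjusted p = 0.606; Spearman rho = 0.601, permutation p = 0.054, adjusted p = 0.54). Without the 2 libraries farthest from the median, its r was 0.122, so it rests on those libraries. The other 9 pairs had r between -0.266 and 0.418, and no pair passed (two-sided permutation tests with 100000 draws, adjusted over the 10 pairs).

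The libraries differed in the levels of markers of other tissue types, so marker lists were set beside the 5 genes. The 12 markers of choroid plexus, the epithelium that makes cerebrospinal fluid, summed to between 92.8 and 3114 TPM in WT and between 64.4 and 4557 TPM in cKO libraries. Most of that sum was *Ttr*, at a mean of 1433 TPM. The 2 libraries in which the channel genes stood highest were at opposite ends of that range: female cKO replicate 1 had the lowest choroid plexus sum (64.4 TPM) and male cKO replicate 1 the highest (4557 TPM). *Clic6*, a CLIC family gene of choroid plexus, was at 0.933 and 30.1 TPM in the same 2 libraries, and *Clic3* at 8.59 and 9.43 TPM. Whether choroid plexus content bears on the levels of the 5 genes was not tested.

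Markers of epithelium (12 genes, among them *Epcam* and *Cdh1*) summed to between 4.16 and 15.2 TPM in WT and between 5.06 and 15.3 TPM in cKO libraries. The highest sum was that of male cKO replicate 1, which also held the most *Scnn1g* (0.463 TPM). Female WT replicate 1 had nearly the same sum (15.2 TPM), with *Scnn1g* at 0.117 TPM. Of the 9 epithelium markers tested, 4 had a higher and 5 a lower mean log2 level in cKO, with a median difference of -0.02. The tight-junction gene *Cldn3* had the highest difference, at 0.869 TPM in WT and 1.43 TPM in cKO (log2 difference 0.63, limma unadjusted p = 0.0267, adjusted p = 0.673). *Krt19* had the lowest (-0.73, limma unadjusted p = 0.176, adjusted p = 0.874). The epithelial gene *Epcam* averaged 0.0574 TPM in WT and 0.0499 TPM in cKO, and *Elf3* was listed at 0 in all libraries. Markers of skeletal muscle, where *Clcn1* is best known, summed to between 11.3 and 19.5 TPM in WT and between 16.3 and 24.1 TPM in cKO libraries, and 9 of the 12 had a higher mean log2 level in cKO, with a median difference of 0.26. The highest sum was that of female cKO replicate 1, which also held the most *Clcn1*. The next highest sum was that of female WT replicate 2 (19.5 TPM), with *Clcn1* at 5.61 TPM. Male cKO replicate 1, with *Clcn1* at 10.9 TPM, had a sum of 17.1 TPM. *Atp2a1*, the calcium pump of fast muscle, was at 0.287 TPM in WT and 1.02 TPM in cKO (log2 difference 1.46, limma unadjusted p = 0.00727, adjusted p = 0.486). *Acta1*, skeletal alpha-actin, had a log2 difference of 0.28 (limma unadjusted p = 0.0177, adjusted p = 0.628). It was the most abundant muscle marker, at a mean of 8.13 TPM, while 8 of the 12 averaged under 1 TPM. *Myoz1* had the lowest difference of the muscle markers (-0.47, limma unadjusted p = 0.151, adjusted p = 0.864). Over all marker lists 86 of 89 genes were tested in limma, with a median of -0.02. Of the 86, 0 were called, and 2 passed the nominal rule upward and 0 downward, against 2.09% and 0.594% of all genes. By list, 10 of 12 choroid plexus markers were higher in cKO (median 0.18) and all 8 ependyma markers lower (-0.325). Lower were also 6 of 7 oligodendrocyte, 5 of 6 blood and 5 of 7 endothelium markers. Higher were 5 of 7 microglia and 6 of 10 hippocampal neuron markers, and meninges markers split 4 to 4. The part of choroid plexus, muscle or epithelial transcripts in the levels of the 5 genes was not tested.

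**Figure D3:**
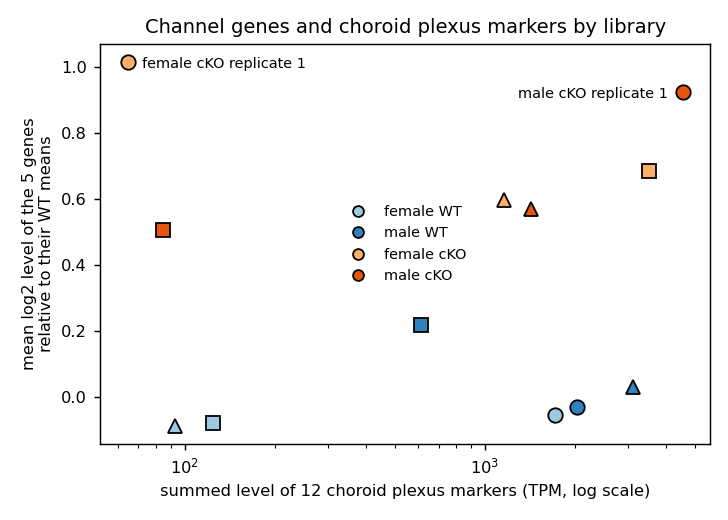
Mean log2 level of the 5 genes relative to their WT means (y axis) against the summed level of 12 choroid plexus markers in TPM (x axis, log scale) in the 12 libraries; circles, squares and triangles are replicates 1, 2 and 3. The cKO libraries lie above the WT libraries from 64.4 to 4557 TPM of choroid plexus markers. The genes were chosen as higher in cKO. The 2 highest libraries, both replicate 1, have the lowest and the highest marker sum.

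No relative of the 5 genes passed the adjusted threshold. Of 34 other genes of the TMC, CLIC, P2X, CLC and ENaC and ASIC families, 29 were tested, 19 had a higher and 10 a lower mean log2 level in cKO, 0 were called in limma, and 3 passed the nominal rule, all higher. Over all 10 lists of other channel genes and regulators, 90 of 107 genes were tested, 54 higher and 36 lower, with a median of 0.05 against 0.02 for all genes. Of the 90, 0 were called, and 5 passed the nominal rule upward and 1 downward. Of all genes tested, 2.09% passed the nominal rule upward and 0.594% downward.

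In the TMC family the nominal calls were *Tmc6* and *Tmc8*, which are known from epidermodysplasia verruciformis and bind the zinc transporter ZnT1. *Tmc6* was at 8.98, 12.4 and 13.3 TPM in female WT, 12.4, 17.6 and 8.36 TPM in male WT, 19.0, 18.6 and 19.7 TPM in female cKO and 19.6, 14.1 and 20.8 TPM in male cKO libraries. Only male cKO replicate 2 fell into the WT range, and the log2 difference was 0.64 with a standard error of 0.16 (limma, unadjusted p = 0.00141, adjusted p = 0.255). *Tmc8* was at 0.568, 0.641 and 0.533 TPM in female WT, 0.794, 1.55 and 1.07 TPM in male WT, 2.28, 1.89 and 1.70 TPM in female cKO and 1.75, 1.61 and 1.00 TPM in male cKO libraries. Its log2 difference was 0.96 (standard error 0.26, limma unadjusted p = 0.00251, adjusted p = 0.319), and its genotypes did not overlap in female libraries but did in male ones. The other tested members of the family lay near 0: *Tmc3* (0.10), *Tmc7* (-0.003), *Tmc5* (-0.03) and *Tmc2* (-0.02).

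The ENaC partners of *Scnn1g* are needed for a full channel. *Scnn1a*, the alpha subunit, was far more abundant than *Scnn1g*, at 3.43 ± 0.928 TPM (SD, n = 6) in WT and 3.43 ± 1.54 TPM (SD, n = 6) in cKO (log2 difference -0.17, limma adjusted p = 0.979). *Scnn1b*, the beta subunit and the nearest tested gene after *Scnn1g* on chromosome 7, was at 0.111 ± 0.0459 TPM in WT and 0.226 ± 0.147 TPM in cKO (log2 difference 0.49, standard error 0.40, limma adjusted p = 0.904), and female cKO replicate 3 was listed at 0. The 10 regulators of ENaC, among them the mineralocorticoid receptor gene *Nr3c2* (-0.01), the kinase gene *Sgk1* (0.16) and the ubiquitin ligase gene *Nedd4l* (0.12), gave 6 higher and 4 lower log2 levels, with 0 called and 0 nominal.

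The largest log2 difference in these lists was that of *Asic3*, an acid-sensing sodium channel gene of the same superfamily that is best known in sensory neurons. It was at 0, 0.171 and 0.186 TPM in female WT, 0, 0.189 and 0.0982 TPM in male WT, 0.340, 0.622 and 0.499 TPM in female cKO and 0.598, 0.660 and 0.707 TPM in male cKO libraries. All 6 cKO values lay above all 6 WT values, at levels near the 0.1 TPM that was added. The log2 difference was 1.81 with a standard error of 0.35 (limma, unadjusted p = 0.000153, adjusted p = 0.0696), and over the alternatives its adjusted p ranged from 0.0335 with 1 TPM added, or 0.0494 with a prior variance without trend, to 0.499 without the CMV-named WT libraries. The brain-rich relatives *Asic1* (0.09) and *Asic2* (0.00) were at 11.9 and 32.1 TPM in WT.

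The abundant relatives among the chloride channels had small differences. In the CLC family *Clcn2*, *Clcn3*, *Clcn4* and *Clcn6*, each above 40 TPM in WT, had log2 differences of 0.00, -0.02, -0.03 and 0.11, so *Clcn1* was a minor CLC transcript in this tissue at 4.92 TPM. In the CLIC family *Clic4*, the most abundant at 38.2 TPM in WT, differed by 0.03, *Clic1* by 0.13 and *Clic5* by 0.11. Of 18 tested genes of other chloride channels, 14 were higher and 4 lower, 0 were called, and *Ano2*, a calcium-activated chloride channel gene, was the only nominal call, at 3.25 TPM in WT and 2.14 TPM in cKO (-0.70, limma unadjusted p = 0.0448, adjusted p = 0.744). In the P2X family *P2rx4*, a partner of *P2rx6* and the most abundant at 18.4 TPM in WT, differed by 0.09, *P2rx7* by -0.06 and *P2rx5* by -0.22. *P2rx1* had the largest difference of these relatives, 0.44, at 0.402 TPM in WT and 0.591 TPM in cKO (limma adjusted p = 0.873). *P2rx3* differed by 0.21. *P2rx2*, the other known partner, averaged 0.00702 TPM in WT and was not tested.

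Of the voltage-gated sodium channel genes 9 of 12 had a lower log2 level in cKO, with a median of -0.05 and 0 called in limma. *Scn3b*, an auxiliary beta subunit, was at 105 ± 3.94 TPM (SD, n = 6) in WT and 92.0 ± 8.07 TPM (SD, n = 6) in cKO (-0.19, limma unadjusted p = 0.00477, adjusted p = 0.421), and the neuronal alpha subunits *Scn1a*, *Scn2a* and *Scn8a* differed by -0.07, -0.11 and -0.04. Of 19 tested TRP channel genes, 11 were higher and 8 lower, with *Trpv1*, the capsaicin receptor gene, as the nominal call (0.267 TPM in WT, 0.606 TPM in cKO, 1.11, limma unadjusted p = 0.00706, adjusted p = 0.486). *Trpa1* had the lowest log2 difference of that list, -1.08 (0.371 TPM in WT, 0.168 TPM in cKO, limma unadjusted p = 0.0578, adjusted p = 0.768). The potassium channel gene *Kcna10* was listed at 0 in 4 of 6 WT libraries and 1 of 6 cKO libraries and reached 0.911 TPM in male cKO replicate 2 (limma unadjusted p = 0.0289, adjusted p = 0.674). *Kcng3*, another potassium channel gene, had a log2 difference of -0.41 (limma adjusted p = 0.852).

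**Figure D4:**
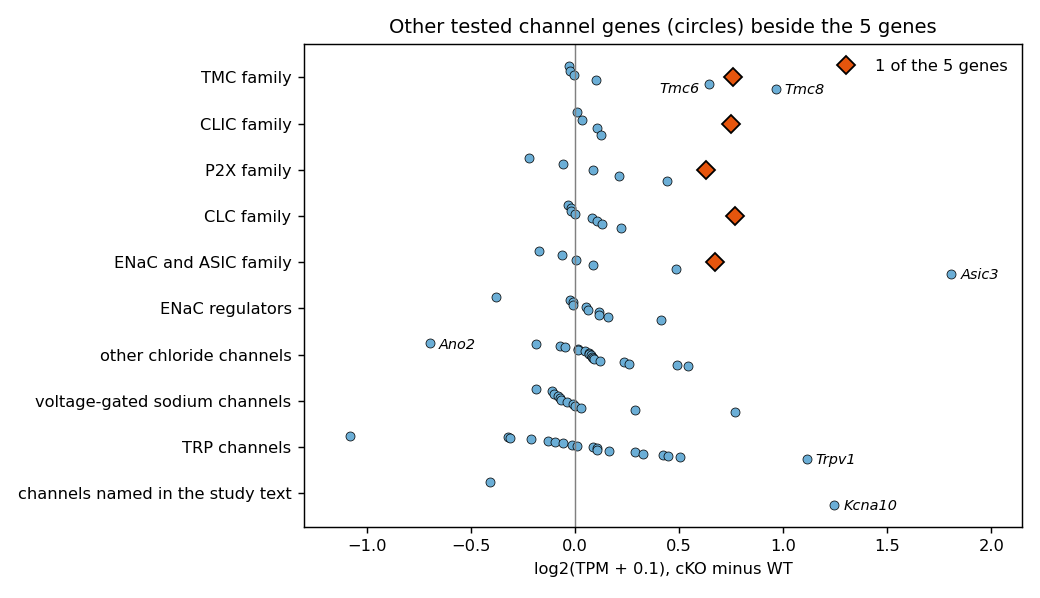
Difference of log2(TPM + 0.1) between cKO and WT (x axis) for the tested genes of 10 channel lists (circles, 1 row per list) with the 5 genes as diamonds in the row of their own family. Most relatives lie near 0 (median 0.05), and the genes past the nominal rule are named, from *Ano2* (-0.70) to *Asic3* (1.81).

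Chromosomal neighbours of the 5 genes were not called. For each gene the 2 nearest tested genes on either side were taken, 20 in all. Of these, 15 were higher and 5 lower in cKO, with a median log2 difference of 0.07, against 0.02 for all genes tested. In limma 0 were called and 0 passed the nominal rule, which 2.09% of all genes passed upward and 0.594% downward. *Mboat7* lies 236 bases from *Tmc4*, and its log2 difference was -0.01 at 98.2 TPM in WT. *Casp2* and *Zyx* beside *Clcn1* gave 0.02 and -0.22, and *Usp31* and *Cog7* beside *Scnn1g* gave -0.02 and 0.03.

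Some neighbours overlap the 5 genes, which bears on how reads were assigned. *P2rx6* shares 554 of its 3995 exon bases (13.9%) with *Slc7a4*, a cationic amino acid transporter family gene on the opposite strand. *Slc7a4* was at 11.7, 15.9 and 18.3 TPM in female WT, 13.2, 15.5 and 14.4 TPM in male WT, 20.5, 17.8 and 17.8 TPM in female cKO and 19.5, 20.3 and 21.7 TPM in male cKO libraries. Its log2 difference of 0.41 (standard error 0.10) had the lowest p of the neighbours (limma, unadjusted p = 0.00098, adjusted p = 0.227). *Clic3* lies wholly inside *Paxx*, a gene of DNA double-strand break repair on the opposite strand, but shares 0 of its 1012 exon bases with exons of *Paxx*, which was at 58.2 ± 3.69 TPM (SD, n = 6) in WT and 65.9 ± 5.08 TPM (SD, n = 6) in cKO (0.18, limma unadjusted p = 0.0103, adjusted p = 0.549). *Clcn1* shares 445 of 5428 exon bases (8.2%) with the more abundant *Fam131b* on the opposite strand (0.08, limma adjusted p = 0.883). *Tmc4* shares 51 of 4280 exon bases with *Leng1* on its own strand (0.15, limma adjusted p = 0.854) and 594 with the antisense gene *Gm15929*, which was not analysed here. The library kit marked strand, but whether the counting used it is not stated, so the levels of *P2rx6*, *Clcn1* and *Tmc4* are uncertain by the share of reads in these bases, and the part of overlapping genes in their differences was not tested.

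**Figure D5:**
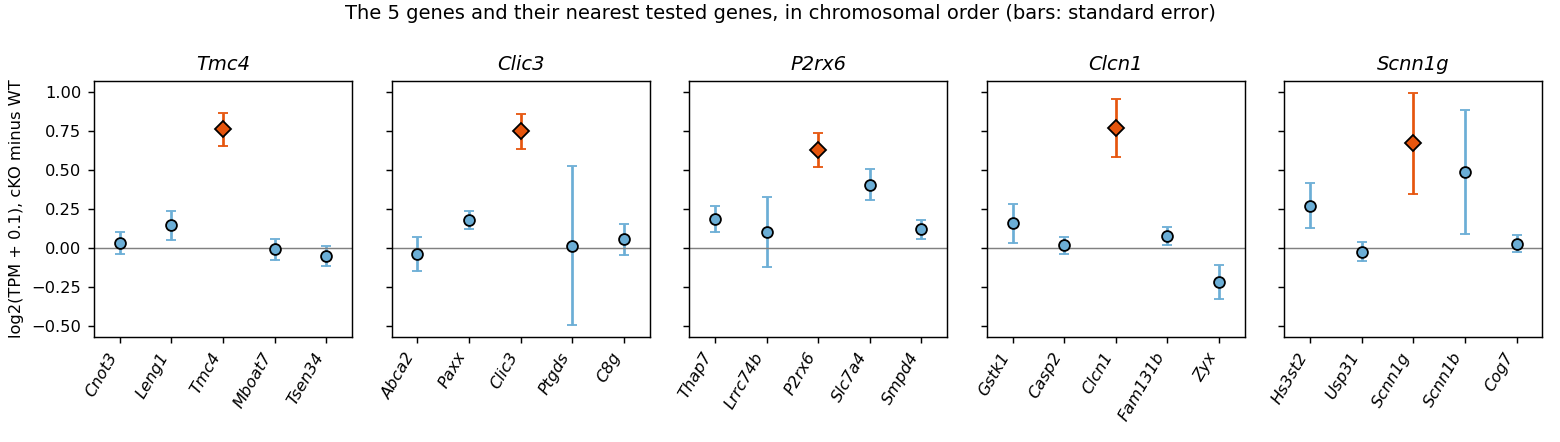
Difference of log2(TPM + 0.1) between cKO and WT (y axis) for each of the 5 genes (diamonds) and the 2 nearest tested genes on either side in chromosomal order (circles; distances not to scale), with bars of 1 standard error. Neighbours range from -0.22 (*Zyx*) to 0.49 (*Scnn1b*), and *Slc7a4* beside *P2rx6* stands at 0.41.

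Finally, the tested genes most like each of the 5 over the 12 libraries were found by Pearson r of log2(TPM + 0.1). These values share the genotype difference on which the 5 genes were chosen, so the r after removing the genotype means is given beside them. Picking the highest r among all genes tested also favours a high centred r, so both are descriptions without a test. For *Tmc4* they were *Col7a1*, the collagen of anchoring fibrils (r = 0.935, centred 0.562), *Arhgef15* (0.930, centred 0.716), and *Sbk3*, a kinase gene (0.920, centred 0.696). For *Clic3* they were *Sfn*, which encodes 14-3-3 sigma (0.963, centred 0.778), the lens filament gene *Bfsp1* (0.931, centred 0.687) and *Col7a1* (0.913, centred 0.298). *Col7a1* was thus among the closest genes of both, at 1.33 TPM in WT and 6.86 TPM in cKO. For *P2rx6* they were *Serpinb6e* (0.931, centred 0.597), the muscle gene *Perm1* (0.929, centred 0.581) and *Tmc4* itself (0.907, centred 0.519). For *Clcn1* they were *Slc22a7*, an organic anion transporter gene (0.921, centred 0.807), *Ptprh* (0.883, centred 0.863) and the Mediator gene *Med20* (0.882, centred 0.733). For *Scnn1g* they were *Sbspon* (0.870, centred 0.804), the sterol isomerase gene *Ebp* (0.870, centred 0.814) and *Tmc8* (0.849, centred 0.757), a relative of *Tmc4*.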

How the data were processed

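Hippocampal poly-A RNA of 12 mice was sequenced. The authors deposited TPM for 26409 genes, without read counts, in which libraries sum to between 825750 and 845553 TPM. The submitters' processing notes name kallisto and mm10, while the paper describes STAR on GRCm38 and Salmon; which of them made the table is not stated. Ensembl IDs gave symbols and positions through GENCODE M21 for 25262 of the 26409 genes. Groups follow the sample labels, and nothing states whether mice of a group were litter mates, so p-values measure the spread between these libraries. The scale was log2(TPM + 0.1), and 18197 genes averaging 0.1 TPM or more were tested; the added 0.1 understates changes of low genes. Tests used limma 3.58.1 in R 4.3.3 (trended prior variance, two-sided, Benjamini-Hochberg over all genes tested), with 2 groups of 6 for genotype and 4 groups of 3 in a single fit for contrasts by sex; the fit was tested on simulated data. Overlaps and promoter letters were counted in Python 3.11.15; 1 promoter window is not reported here. The 5 genes and all gene lists were chosen with earlier results of these data known. Genes named are the 5, the checks of genotype and sex, list members that passed a call rule, were highest, lowest, most abundant or closest relatives, the 4 neighbours and the 3 most alike genes of each; other list genes were named after their values were seen. Alternatives changed the value added, the filter, the scaling, the prior, sex as a covariate, a replicate block and the libraries used. The WT sex contrast and the values within each sex without both libraries of conflicting sex were added after seeing the data.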

Additional observations from a re-analysis of the deposited data

Results flagged for a closer look

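Among the 10 sets of 6 libraries (5 genes in WT and in cKO), a single value stood far from the others. *Tmc4* in female cKO replicate 1, at 18.9 TPM, was separated by more than Dixon's critical value for 6 libraries from the next cKO library (14.9 TPM), with a gap of 0.665 of the range of the 6 cKO values. Chance marks about 1 set in 20. The same library was the highest of the 12 for *P2rx6* (8.56 TPM) and *Clcn1* (11.0 TPM). Without it the log2 difference of *Tmc4* between cKO and WT was 0.69, and all other cKO libraries still lay above all WT libraries.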

How the results depend on the processing

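The table gives TPM alone, so the limit that depth sets on each gene is unknown. Of the 5, *Scnn1g* is the gene with a level near the 0.1 TPM added. All 5 genes had a higher mean in cKO under every alternative in which they were fitted, with a median log2 difference between 0.654 and 0.790; *Scnn1g* was not tested with a mean of at least 1 TPM, and its difference was 0.171 with 1 TPM added. The number of the 5 past the adjusted threshold was 0 without both libraries of conflicting sex, 0 without the C57-named WT libraries, 0 without the CMV-named WT libraries and 0 with a replicate block, and between 1 and 3 as each library was left out. The number with all cKO above all WT values was 5 without the CMV-named WT libraries and 3 or 4 as each library was left out. Other channel genes past the adjusted threshold numbered 1, *Asic3*, with 0.5 TPM added, with 1 TPM added and with a prior variance without trend, and 0 otherwise. Nominal calls upward were 3 with 0.5 TPM added, 1 with 1 TPM added, 2 with a mean of at least 1 TPM and between 5 and 8 as each library was left out, with 8 without female cKO replicate 3. Nominal calls downward were 0 with 0.5 or 1 TPM added, no filter, the prior without trend, sex as a covariate and without the CMV-named WT libraries, 2 with quantile normalization, and 0 to 2 as each library was left out. No neighbour or marker was called under any alternative run.

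The 5 genes were called in no contrast by sex under any alternative, with a lowest adjusted p of 0.492 for the interaction, 0.963 between WT sexes and 0.433 between cKO sexes. Small differences changed sign. Male against female WT was 0.00478 for *P2rx6* with quantile normalization, between -0.139 and 0.114 for *P2rx6* and between -0.195 and 0.107 for *Tmc4* as each library was left out. The difference of *Scnn1g* between male cKO and male WT was -0.25 without both libraries of conflicting sex, an alternative chosen after seeing the data. Male against female cKO was -0.0642 for *Clic3* and -0.258 for *Clcn1* without both libraries of conflicting sex, and between -0.0881 and 0.338 for *Clcn1* as each library was left out. The interaction ranged from -0.0217 to 0.232 for *P2rx6* and from -0.00558 to 0.421 for *Clcn1* as each library was left out. The cause of these shifts was not tested.

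Replicate numbers did not pair the libraries: deviations of libraries of a sex with the same number correlated between -0.0385 and 0.0445. With a replicate block the median log2 difference of the 5 genes was 0.751 as without it, and the block could not be fitted for the contrasts between WT sexes and between cKO sexes.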
